A study of Mus musculus with 8 samples.

Results

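The transforming growth factor beta (TGF-beta) pathway was followed through 10 of its core genes in the ventral prostate of hSKP2-KI and wild-type (WT) mice. The genes were picked by symbol for their role: the ligand genes Tgfb1, Tgfb2, Tgfb3 and Inhba, the receptor genes Tgfbr1, Tgfbr2 and Tgfbr3, and the SMAD genes Smad2, Smad3 and Smad7. All 10 were among the 36333 genes of the deposited table, and 9 of them passed the filter on low values. In hSKP2-KI mice the human SKP2 coding sequence, behind a self-cleaving peptide, sits at exon 1 of the mouse probasin gene, so that its expression follows the probasin promoter of prostate epithelium. Male hSKP2-KI offspring of heterozygous females and WT FVB/N males were compared with WT males, with 4 mice of each genotype, all 12 months old. The paper describes no other treatment of either group. The founder line of the sequenced mice is not stated. Whole ventral lobes were homogenized, so each library holds epithelium, stroma, vessels and immune cells of 1 mouse.

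TGF-beta ligands are made as latent complexes that bind to the extracellular matrix and must be released before they can signal. Active ligand binds the type II receptor TGFBR2, which phosphorylates the type I receptor TGFBR1, and TGFBR1 in turn phosphorylates SMAD2 and SMAD3, which enter the nucleus with SMAD4. The type III receptor TGFBR3 (betaglycan) presents ligand to TGFBR2, and SMAD7 is an inhibitory SMAD that is induced by the pathway and blocks the type I receptor. In the prostate, TGF-beta is known to restrain epithelial growth and to drive the differentiation of fibroblasts and smooth muscle.

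Sequence upstream of the transcription start was taken from RefSeq (GRCm38.p6) for members with an entry in the table used, which were 6 of the 10: Tgfb1, Tgfb2, Inhba, Tgfbr1, Tgfbr2 and Smad3. The 250 bases before the start are shown for a pair of ligands and a pair of receptors whose levels are described next, to set promoters of the same family side by side. Both strands were searched for the SMAD-binding element CAGAC and for the TATA box TATAAA. The GC box, bound by SP1, was searched as GGGCGG, and none of these motifs contains another. Capitals mark the matches, and each sequence reads 5′ to 3′ toward the start site.
Tgfb1, chr7:25686752-25687001, plus strand: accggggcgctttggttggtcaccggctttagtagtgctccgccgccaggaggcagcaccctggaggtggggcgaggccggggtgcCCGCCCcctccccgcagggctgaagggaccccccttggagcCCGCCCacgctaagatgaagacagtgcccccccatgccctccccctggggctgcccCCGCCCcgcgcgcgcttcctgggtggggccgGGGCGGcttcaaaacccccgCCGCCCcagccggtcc
Tgfb2, chr1:186705990-186706239, minus strand: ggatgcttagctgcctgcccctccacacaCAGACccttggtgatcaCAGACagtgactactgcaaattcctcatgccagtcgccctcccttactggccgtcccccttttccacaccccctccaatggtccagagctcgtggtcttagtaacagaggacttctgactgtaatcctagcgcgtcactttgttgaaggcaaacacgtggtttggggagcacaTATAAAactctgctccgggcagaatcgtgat
Tgfbr1, chr4:47352972-47353221, plus strand: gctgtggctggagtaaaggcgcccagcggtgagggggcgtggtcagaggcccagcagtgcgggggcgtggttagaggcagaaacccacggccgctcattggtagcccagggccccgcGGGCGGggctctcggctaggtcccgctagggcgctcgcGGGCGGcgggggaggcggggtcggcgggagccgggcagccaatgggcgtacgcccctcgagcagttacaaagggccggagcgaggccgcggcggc
Tgfbr2, chr9:116175364-116175613, minus strand: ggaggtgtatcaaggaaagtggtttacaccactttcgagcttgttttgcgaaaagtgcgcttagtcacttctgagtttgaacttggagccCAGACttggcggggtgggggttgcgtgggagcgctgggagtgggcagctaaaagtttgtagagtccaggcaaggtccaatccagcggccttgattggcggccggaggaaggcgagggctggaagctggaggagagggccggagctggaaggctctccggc
The Tgfb1 sequence held 5 GC boxes, with neither a TATA box nor a CAGAC, and its GC content was 75.2%. The Tgfb2 sequence held no GC box but a TATA box that begins 31 bases before the start and 2 copies of CAGAC, with a GC content of 53.6%. It lies inside the annotated span of the gene and overlaps an exon of the antisense transcript Gm29491. The Tgfbr1 sequence shown had 2 GC boxes at a GC content of 74.8%, and that of Tgfbr2 had 1 CAGAC and no GC box at 58.4%. The table holds a second Tgfbr1 promoter (chr4:47385966-47386215, inside the gene), which had 1 CAGAC and no GC box at 52.8%, the same motif counts as Tgfbr2. Among all 32851 promoters of the table, cut to the same length, 42.2% held CAGAC, 12.4% held TATAAA and 32.7% held GGGCGG, and the median GC content was 52.4%. Such matches describe the letters of the window and say nothing of binding in these prostates.

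Expression was measured by RNA sequencing with one library per mouse and deposited as TPM, the transcripts of a gene per 1000000 transcripts of its library, which accounts for transcript length. Mouse Skp2 had a TPM of 37.3 to 60.6 in hSKP2-KI and 1.05 to 2.27 in WT prostates, and Pbsn, the gene that received the insert, 93.0 to 174 against 3980 to 9232, which matches the labels, although how reads of the human sequence were assigned is not stated. The secretory genes Sbp, Spink1 and Sbpl held 32.1% to 34.3% of all TPM in hSKP2-KI and 40.4% to 45.8% in WT libraries, so the TPM of all other genes shared a larger remainder in hSKP2-KI. The median log2 fold change of the 13080 genes tested (those that reached a TPM of 1 in 4 or more samples) was 0.23 on the TPM scale and −0.01 after median-ratio scaling, which divides each library by the median ratio of its genes to their average over all libraries. Each result below is therefore given on both scales. Fold changes are hSKP2-KI over WT on the log2(TPM + 1) scale, from limma with Benjamini-Hochberg adjusted p-values over all 13080 genes and a threshold of 0.05.

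On the TPM scale 4 of the 9 tested members rose in hSKP2-KI prostates, namely the ligands Tgfb1 and Tgfb3 and the receptors Tgfbr1 and Tgfbr2, and none fell. At an unadjusted p under 0.05 limma gave 6 members higher and 0 lower, beside 46.7% and 1.82% of all tested genes. All SMAD members stayed short of the threshold. The share of 44.4% stands beside 33.9% of all tested genes called on that scale, of which 32.7% were higher and 1.23% lower. After median-ratio scaling limma called 0 of the 9 members, where 11.2% of all genes were called (6.92% higher, 4.25% lower), and 3 members had an unadjusted p under 0.05, Tgfbr1 and Tgfbr2 in the higher (15.6% of all genes) and Smad7 in the lower direction (12.2%). The median log2 fold change of the members was 0.30 on the TPM scale and 0.04 after median-ratio scaling, beside 0.23 and −0.01 over all tested genes. The genotypes did not overlap for the same 4 members on the TPM scale, all higher, beside 35.1% of all tested genes (34.0% higher, 1.03% lower). After median-ratio scaling they overlapped for each of the 9 members, beside 19.2% (10.3% higher, 8.91% lower).

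**Figure D1:**
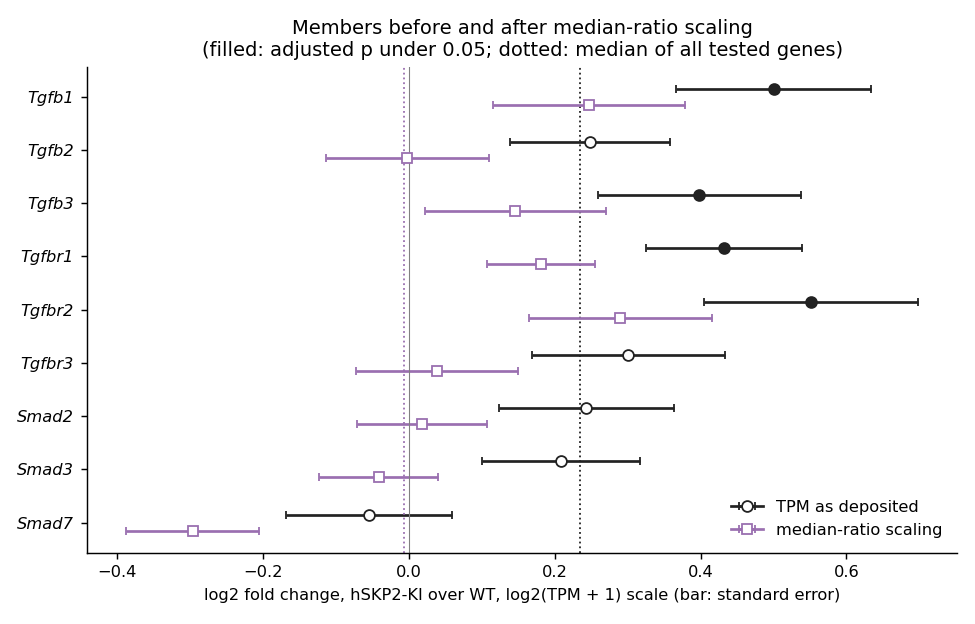
Log2 fold change of the 9 tested members, hSKP2-KI over WT, on the log2(TPM + 1) scale, with bars of 1 standard error. Black circles are TPM as deposited and purple squares are median-ratio scaled values, filled symbols have an adjusted p under 0.05, and dotted lines mark the median of all tested genes (0.23 and −0.01). Tgfb1, Tgfb3, Tgfbr1 and Tgfbr2 are filled on the TPM scale only, and Smad7 lies lowest on both.

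Tgfb1, which encodes the ligand best known for immune regulation and fibrosis, is on chromosome 7 (25687002 to 25705077, plus strand, GRCm38.p6, Entrez 21803). Its TPM was 15.5, 23.0, 14.9 and 19.0 in the hSKP2-KI mice 1 to 4 and 12.5, 13.2, 13.0 and 10.8 in the WT mice 1 to 4. Every hSKP2-KI value lay above every WT value, and mouse 2 of the hSKP2-KI group was the highest. The means were 18.1 ± 3.74 and 12.4 ± 1.08 TPM (SD, n = 4 each), which limma put at 0.50 in log2 with a standard error of 0.13 and an adjusted p of 0.0180. With median-ratio scaling the genotypes overlapped and the log2 fold change was 0.25 (adjusted p = 0.261). The gene's change ranked at the 83.5th percentile of all tested genes.

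Tgfb2 (chromosome 1, 186622787 to 186709697, Entrez 21808) encodes a ligand that depends on TGFBR3 for efficient receptor binding. Its TPM was 15.2, 15.9, 15.1 and 12.1 in hSKP2-KI and 11.6, 11.0, 11.8 and 14.0 in WT mice. In hSKP2-KI mice 1 to 3 it was above all WT values, whereas hSKP2-KI mouse 4 fell within the WT range. In log2 the difference of 0.25 (standard error 0.11, adjusted p = 0.0956 by limma) did not pass the threshold and reversed to −0.0022 after median-ratio scaling (adjusted p = 0.992). Without hSKP2-KI mouse 4 it did pass on the TPM scale, with 0.33 and an adjusted p of 0.0484 in the limma fit.

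Tgfb3 (chromosome 12, 86056743 to 86079041, Entrez 21809), the third mammalian isoform, known for its role in palate fusion and matrix repair, had a TPM of 16.9, 22.3, 14.7 and 15.3 in hSKP2-KI and 10.3, 14.1, 13.9 and 12.8 in WT mice. The genotypes did not overlap, but the gap was small: the lowest hSKP2-KI value of 14.7 lay next to the highest WT value of 14.1. Its log2 fold change was 0.40 (standard error 0.14, adjusted p = 0.0473 by limma), and 0.15 after median-ratio scaling (adjusted p = 0.493). This call was the least firm of the 4, since it was lost when hSKP2-KI mouse 1, 2 or 4 or WT mouse 1, 3 or 4 was left out, with adjusted p up to 0.118.

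Inhba encodes the beta A subunit of activin A, a related ligand that signals through SMAD2 and SMAD3 by its own receptors. Its level was the lowest of all members and did not pass the filter, with a TPM of 0.512, 0.354, 1.11 and 1.06 in hSKP2-KI and 0.165, 0.356, 0.445 and 0.350 in WT mice. In hSKP2-KI mice 1, 3 and 4 it was above all WT values. The difference in mean log2(TPM + 1) was 0.38 (two-sided exact permutation p = 0.0857 over 70 assignments), so it did not exceed what the spread between mice allows at this number. At such a level, and with the mapped depth of each library unknown, the precision of these values cannot be stated.

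**Figure D2:**
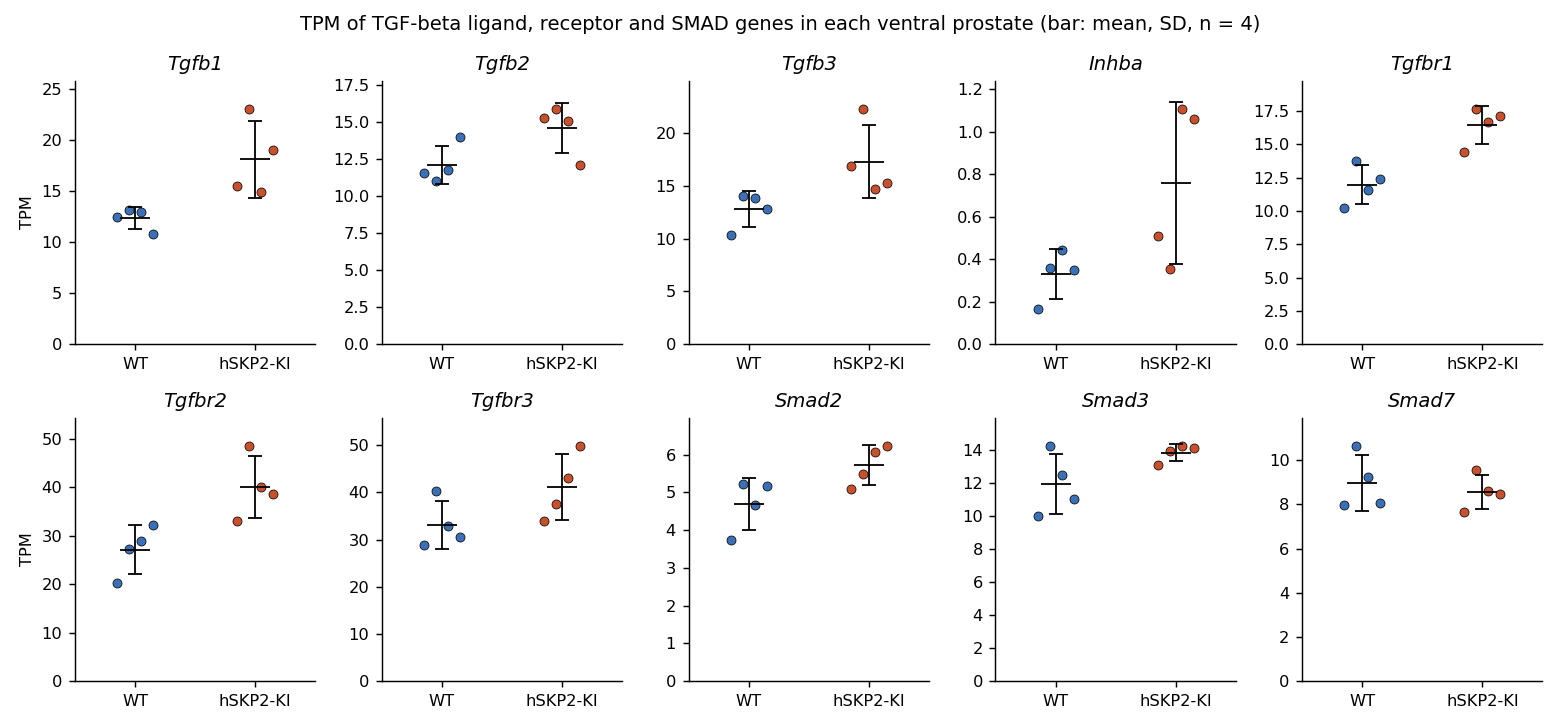
TPM of the 10 members in each of the 8 ventral prostates, WT in blue and hSKP2-KI in red, with 1 point per mouse in order of replicate number and bars for the mean and SD (n = 4), each panel on its own axis from 0. The genotypes are apart for Tgfb1, Tgfb3, Tgfbr1 and Tgfbr2 and overlap for the others.

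The 3 TGF-beta isoforms were present at close to equal levels. Tgfb1 made up 36.1% ± 3.91 of their summed TPM in hSKP2-KI and 33.2% ± 3.26 in WT prostates (SD, n = 4 each, two-sided exact permutation p = 0.343). The share of Tgfb2 was 29.5% ± 4.05 and 32.5% ± 3.68 (exact permutation p = 0.314), and that of Tgfb3 was 34.4% ± 1.77 and 34.2% ± 2.97 (exact permutation p = 0.971). These shares are taken within a library and do not depend on its scaling. None of them differed by more than the spread between mice, with p-values adjusted over 6 ratios and shares of 0.6 or above.

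Tgfbr1, the type I receptor kinase that phosphorylates SMAD2 and SMAD3, is on chromosome 4 (47353222 to 47414926, Entrez 21812). Its TPM was 14.4, 17.6, 16.7 and 17.2 in hSKP2-KI and 10.2, 13.7, 11.6 and 12.4 in WT mice, with no overlap. Mean levels were 16.5 ± 1.42 and 12.0 ± 1.48 (SD, n = 4 each), and the log2 fold change was 0.43 (standard error 0.11, adjusted p = 0.0132 by limma). With median-ratio scaling it was 0.18 (adjusted p = 0.144).

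Tgfbr2 (chromosome 9, 116087695 to 116175363, Entrez 21813), the type II receptor to which ligand first binds, showed the largest log2 fold change of the members. In hSKP2-KI mice its TPM was 33.0, 48.6, 40.0 and 38.7, and in WT mice 20.2, 27.3, 28.8 and 32.2. No value overlapped, though hSKP2-KI mouse 1 was only just above WT mouse 4. The means of 40.1 ± 6.43 and 27.1 ± 5.03 TPM (SD, n = 4 each) were 0.55 apart in log2 by limma (standard error 0.15, adjusted p = 0.0177), and 0.29 after median-ratio scaling (adjusted p = 0.166). The calls of Tgfb1, Tgfbr1 and Tgfbr2 on the TPM scale were kept when any single mouse was left out, with adjusted p of at most 0.0469, 0.0369 and 0.0456.

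Tgfbr3 (chromosome 5, 107106567 to 107289629, Entrez 21814), the betaglycan gene, was the member with the highest mean. It stood at 33.9, 37.5, 43.1 and 49.9 TPM in hSKP2-KI and 28.8, 40.2, 32.8 and 30.6 TPM in WT mice. The genotypes overlapped through WT mouse 2. A difference of 0.30 in log2 (standard error 0.13, adjusted p = 0.0943 by limma) missed the threshold, and with median-ratio scaling it was 0.04 (adjusted p = 0.864). Without WT mouse 2 it passed on the TPM scale, with 0.40 and an adjusted p of 0.0371 in the limma fit. The log2 ratio of Tgfbr1 to Tgfbr2 was −1.27 ± 0.13 in hSKP2-KI and −1.17 ± 0.21 in WT prostates (SD, n = 4 each, two-sided exact permutation p = 0.4), a difference within the spread between mice.

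Smad2 (Entrez 17126), a receptor-activated SMAD that reaches DNA through partner factors, had a TPM of 5.09, 5.48, 6.08 and 6.23 in hSKP2-KI and 3.74, 5.21, 4.67 and 5.16 in WT mice. The groups overlapped at their edges, and the log2 fold change was 0.24 (standard error 0.12, adjusted p = 0.128 by limma), or 0.02 after median-ratio scaling (adjusted p = 0.922). Smad3 (chromosome 9, 63646766 to 63757994, Entrez 17127), the receptor-activated SMAD that binds DNA directly, stood at 13.1, 13.9, 14.2 and 14.1 TPM in hSKP2-KI and 10.0, 14.2, 12.5 and 11.0 TPM in WT mice. WT mouse 2 reached the hSKP2-KI level, and the hSKP2-KI values lay close together. The log2 fold change was 0.21 (standard error 0.11, adjusted p = 0.145 by limma) and reversed to −0.04 after median-ratio scaling (adjusted p = 0.791). Without WT mouse 2 it passed on the TPM scale, with 0.29 and an adjusted p of 0.0468 in the limma fit. The log2 ratio of Smad3 to Smad2 was 1.28 ± 0.09 in hSKP2-KI and 1.34 ± 0.17 in WT prostates (SD, n = 4 each, two-sided exact permutation p = 0.543).

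Smad7 (Entrez 17131), the inhibitory SMAD and itself a target of the pathway, passed in neither direction on the TPM scale and had the lowest log2 fold change of the members. Its TPM was 7.65, 9.54, 8.62 and 8.49 in hSKP2-KI and 7.96, 10.6, 9.25 and 8.06 in WT mice. The ranges overlapped from 7.96 to 9.54 TPM, with hSKP2-KI mouse 1 below all WT values and WT mouse 2 above all hSKP2-KI values. The means were 8.57 ± 0.774 and 8.98 ± 1.26 TPM (SD, n = 4 each), and in log2 the difference was −0.05 (standard error 0.11, adjusted p = 0.705 by limma). This placed it at the 7.48th percentile of all tested genes, where each other tested member lay between percentiles 44.2 and 86.1. After median-ratio scaling its log2 fold change was −0.30 (standard error 0.09, adjusted p = 0.0634), short of the threshold, and after quantile normalization it was −0.33 (adjusted p = 0.0385 by limma). Its sign on the TPM scale also turned on 1 library, since without WT mouse 2 the value was 0.02.

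Set against Smad3 in the same library, Smad7 gave a ratio that was lower in each hSKP2-KI mouse than in any WT mouse. The log2 ratio of Smad7 to Smad3 was −0.77, −0.55, −0.72 and −0.73 in hSKP2-KI mice 1 to 4 and −0.33, −0.42, −0.43 and −0.45 in WT mice 1 to 4. The hSKP2-KI value nearest to the WT range was that of mouse 2. On a linear scale there were 0.618 Smad7 transcripts per Smad3 transcript in hSKP2-KI and 0.754 in WT prostates, by the back-transformed means. The difference of −0.29 in log2 had a two-sided exact permutation p of 0.0286, the smallest that 4 against 4 mice can give, and an adjusted p of 0.171 over the 6 ratios and shares, so it did not pass the correction. With any 1 mouse left out the difference stayed between −0.34 and −0.26. The ratio does not depend on library scaling, in contrast to the fold changes of both genes.

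**Figure D3:**
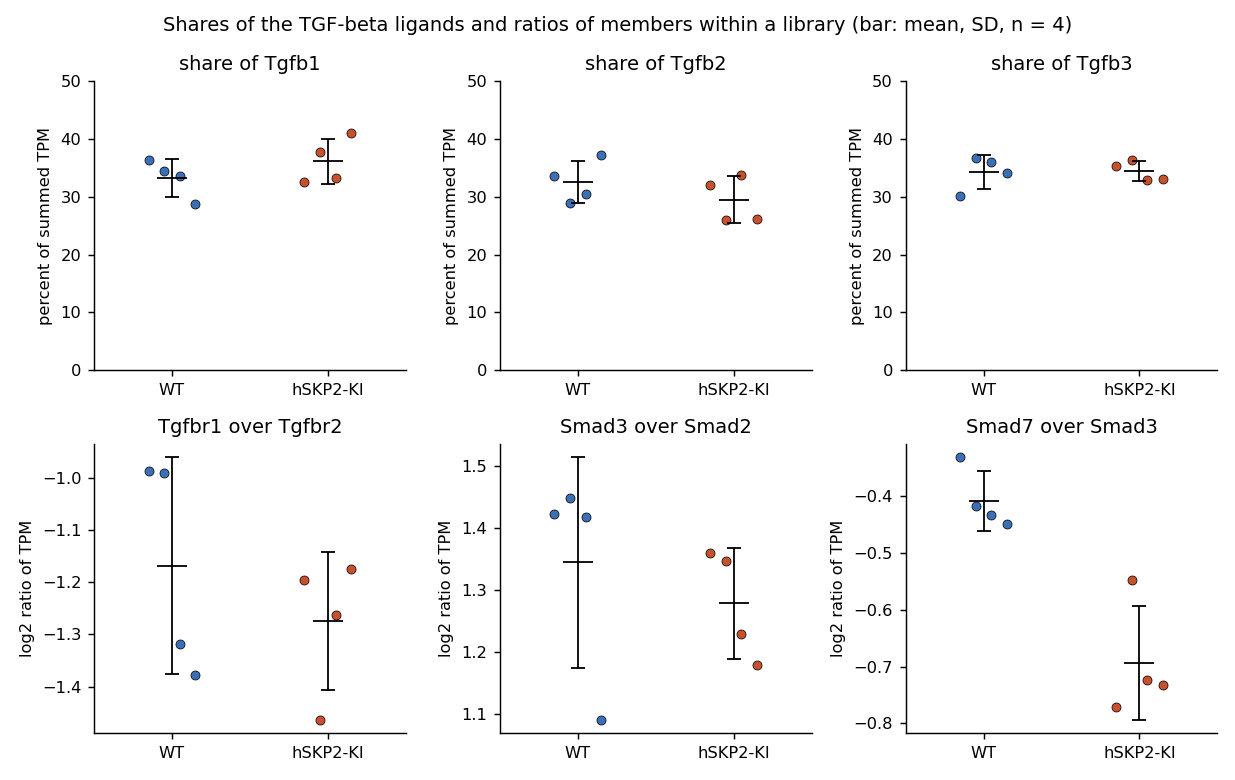
Shares of Tgfb1, Tgfb2 and Tgfb3 in their summed TPM (percent, top row) and log2 ratios of TPM within a library (bottom row, axes not from 0), with 1 point per mouse and bars for the mean and SD (n = 4). WT is blue and hSKP2-KI red. Only for Smad7 over Smad3 are the genotypes apart, with −0.77 to −0.55 in hSKP2-KI and −0.45 to −0.33 in WT.

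Ordered by mean TPM, which is per transcript length and allows genes to be set side by side, both genotypes had the receptors Tgfbr3 (41.1 in hSKP2-KI, 33.1 in WT) and Tgfbr2 (40.1, 27.1) on top, with overlapping ranges. A middle group of Tgfb1, Tgfb3, Tgfbr1, Tgfb2 and Smad3 followed, between 13.8 and 18.1 TPM in hSKP2-KI and between 11.9 and 12.8 TPM in WT, and neighbours in that group overlapped in each genotype. Smad7 came next, apart from Smad3 in hSKP2-KI but overlapping it in WT, then Smad2 and, far lower, Inhba. Among all tested genes the mean levels of the members ran from the 27.7th percentile for Smad2 to the 78.8th for Tgfbr3.

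The other genes of the pathway were taken from 8 lists chosen by known role, 74 genes in all, of which 66 were tested. On the TPM scale 40 of them rose and 1 fell in hSKP2-KI prostates, 62.1% called beside 33.9% of all genes. After median-ratio scaling 12 rose and 1 fell, 19.7% beside 11.2%. The median log2 fold change was 0.50, or 0.26 after median-ratio scaling. Without WT mouse 1 only 25 were called on the TPM scale (24 higher, 1 lower).

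Among the 8 tested ligands outside the members, 5 rose and 0 fell on the TPM scale, 62.5% higher beside 32.7% of all tested genes. At an unadjusted p under 0.05 in limma 8 were higher and 0 lower, beside 46.7% and 1.82% of all tested genes. Bmp4, a bone morphogenetic protein (BMP) that signals through SMAD1 and SMAD5, had a TPM of 12.0 ± 2.91 in hSKP2-KI and 6.37 ± 1.09 in WT prostates (SD, n = 4 each), a log2 fold change of 0.80 (adjusted p = 0.00689 by limma), and it alone of this list passed after median-ratio scaling (0.56, adjusted p = 0.0426). Inhbb, the activin beta B subunit, rose by 0.67 and Bmp2 by 0.60 on the TPM scale, but after median-ratio scaling neither passed (adjusted p = 0.0609 and 0.0636). Leaving out hSKP2-KI mouse 2 or 4 or WT mouse 1 or 4 left 3 of these ligands called.

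All 11 tested genes of the list on latency and activation rose on the TPM scale, where 32.7% of all tested genes were called higher. After median-ratio scaling 27.3% of the list and 6.92% of all tested genes were called higher. The list was drawn broadly, and not each of its genes holds or releases latent TGF-beta. Ltbp1, a latent TGF-beta binding protein of the matrix, had a TPM of 11.8, 14.1, 13.5 and 12.0 in hSKP2-KI and 4.58, 5.32, 7.28 and 6.59 in WT mice. Those values were far apart between genotypes, a 2.16-fold higher mean and a log2 fold change of 1.01 (adjusted p = 0.0011 by limma), and 0.77 after median-ratio scaling (adjusted p = 0.00667). Thbs1, encoding the activator thrombospondin-1, rose by 0.81 and Itgb8, an integrin subunit that activates latent TGF-beta, by 0.65 on the TPM scale, while after median-ratio scaling both had an adjusted p of 0.163. The genes of the list that passed after median-ratio scaling were Ltbp1, Ltbp2 (0.43, adjusted p = 0.0250) and Furin (0.25, adjusted p = 0.0261), the last being the protease that cleaves the propeptide. Ltbp2 and Furin are named here after their values were seen. Without WT mouse 1 this list had 5 calls, without WT mouse 4 it had 6, and without hSKP2-KI mouse 2 or 4 it had 7.

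Of 10 other receptors 3 rose on the TPM scale, 30% beside 32.7% of all tested genes, and 1 fell, beside 1.23% of all tested genes. Acvrl1 and Eng, the receptor and co-receptor known for endothelial signaling, rose by 0.64 and 0.54, and Bmpr1a, a type I receptor for bone morphogenetic proteins, by 0.40, all on the TPM scale and none of them after median-ratio scaling (adjusted p = 0.0579, 0.0842 and 0.214). Bmpr1b, another type I receptor of that class, was the gene that fell: its TPM was 64.0, 63.6, 90.5 and 66.1 in hSKP2-KI and 103, 98.9, 103 and 109 in WT mice, with no overlap. Its log2 fold change was −0.55 (adjusted p = 0.00558 by limma) and −0.82 after median-ratio scaling (adjusted p = 0.00463). Bmpr1b thus went down on both scales, with a mean of 0.686 times that in WT prostates.

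Among the 4 other SMADs tested, 2 rose on the TPM scale, 50% beside 32.7% of all tested genes. None rose after median-ratio scaling, where 1 was higher at an unadjusted p under 0.05 in limma, beside 15.6% of all tested genes. Smad6, the second inhibitory SMAD, which acts mainly on bone morphogenetic protein receptors, had a TPM of 8.74, 6.98, 6.33 and 7.48 in hSKP2-KI and 3.72, 5.67, 3.67 and 4.46 in WT mice, a log2 fold change of 0.65 (adjusted p = 0.00804 by limma) and 0.42 after median-ratio scaling (adjusted p = 0.0516). Smad5, a receptor-activated SMAD of the bone morphogenetic protein branch, rose by 0.36 (adjusted p = 0.0312) and stood at 0.10 after median-ratio scaling (adjusted p = 0.461). The linear ratio of Smad6 to Smad7, formed after their values were seen and given with no test, was 0.732 to 1.14 in hSKP2-KI and 0.397 to 0.553 in WT libraries. The call of 1 of these SMADs was lost without hSKP2-KI mouse 3 or 4 or WT mouse 1 or 3, leaving 1.

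Of the secreted antagonists of the family, 3 of 4 tested genes rose on the TPM scale, 75% beside 32.7% of all tested genes. Fstl3, which binds activin, had 9.95 ± 2.61 TPM in hSKP2-KI and 5.09 ± 0.59 in WT prostates (SD, n = 4 each), a log2 fold change of 0.83 (adjusted p = 0.00428 by limma), and passed after median-ratio scaling (0.59, adjusted p = 0.0282). Fst, the gene of follistatin, another activin binder, rose by 0.57 and Chrd, the gene of the bone morphogenetic protein antagonist chordin, by 0.50 on the TPM scale, with adjusted p of 0.139 and 0.193 after median-ratio scaling. Grem1 was listed at 0 in 7 of the 8 libraries. Of 11 intracellular inhibitors, 7 were higher and 0 lower on the TPM scale at an unadjusted p under 0.05 in limma. Over all tested genes these shares were 46.7% and 1.82%. After median-ratio scaling 1 was higher and 2 were lower at that level, beside 15.6% and 12.2% of all tested genes. With adjustment 5 of the inhibitors rose on the TPM scale, 45.5% beside 33.9% of all tested genes. Pmepa1, a target and brake of the pathway, had the largest log2 fold change of these (0.88, adjusted p = 0.00796 by limma, and 0.65 with adjusted p = 0.0475 after median-ratio scaling), followed by Nedd4l (0.39) and Skil (0.38), a ubiquitin ligase and a SMAD corepressor that did not pass after scaling (adjusted p = 0.301 and 0.426). The count of intracellular inhibitors was 3 without hSKP2-KI mouse 1 or 3 or WT mouse 4, 2 without hSKP2-KI mouse 2 or WT mouse 1, and 1 without hSKP2-KI mouse 4.

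Genes known as targets of TGF-beta passed the threshold only in part. Of 15 tested, 8 rose and 0 fell on the TPM scale (9 higher and 0 lower at an unadjusted p under 0.05 in limma), and 3 rose after median-ratio scaling. Postn, encoding the matrix protein periostin, had a TPM of 41.9 ± 18.0 in hSKP2-KI and 14.1 ± 4.12 in WT prostates (SD, n = 4 each), a log2 fold change of 1.45 (adjusted p = 0.00379 by limma) and 1.20 after median-ratio scaling (adjusted p = 0.0206). Fn1, encoding fibronectin, rose by 1.34 (1.07 with adjusted p = 0.0498 after median-ratio scaling), and Klf10, an early TGF-beta response gene, by 0.93 (0.70 with adjusted p = 0.0505). Tgfbi was the remaining target past the threshold after scaling (0.57, adjusted p = 0.0477). The early targets Ctgf (1.25, adjusted p = 0.0806) and Cyr61 (0.63, adjusted p = 0.203) and the cell cycle inhibitor gene Cdkn2b (0.01, adjusted p = 0.979) did not pass on the TPM scale by limma. These 3 and Tgfbi are named after their values were seen, and Postn, Fn1 and Tgfbi are matrix proteins that fibroblasts also make. Without WT mouse 1 the list had 5 calls.

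Id1, Id2 and Id3, the inhibitors of DNA binding that bone morphogenetic proteins induce, all rose on both scales. Over all tested genes 32.7% were called higher on the TPM scale and 6.92% after median-ratio scaling. The TPM of Id1 was 28.4, 29.8, 28.4 and 35.1 in hSKP2-KI and 6.89, 17.3, 9.44 and 10.4 in WT mice, a 2.76-fold higher mean that amounted to 1.45 in log2 (adjusted p = 0.00152 by limma) and 1.20 after median-ratio scaling (adjusted p = 0.00503). Id3 rose by 1.06 and Id2 by 0.78, and after median-ratio scaling by 0.80 (adjusted p = 0.0250) and 0.52 (adjusted p = 0.0111). For each of the 3 genes the genotypes were apart on both scales. All 3 calls on the TPM scale were kept when any single mouse was left out, which was not tried after median-ratio scaling.

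**Figure D4:**
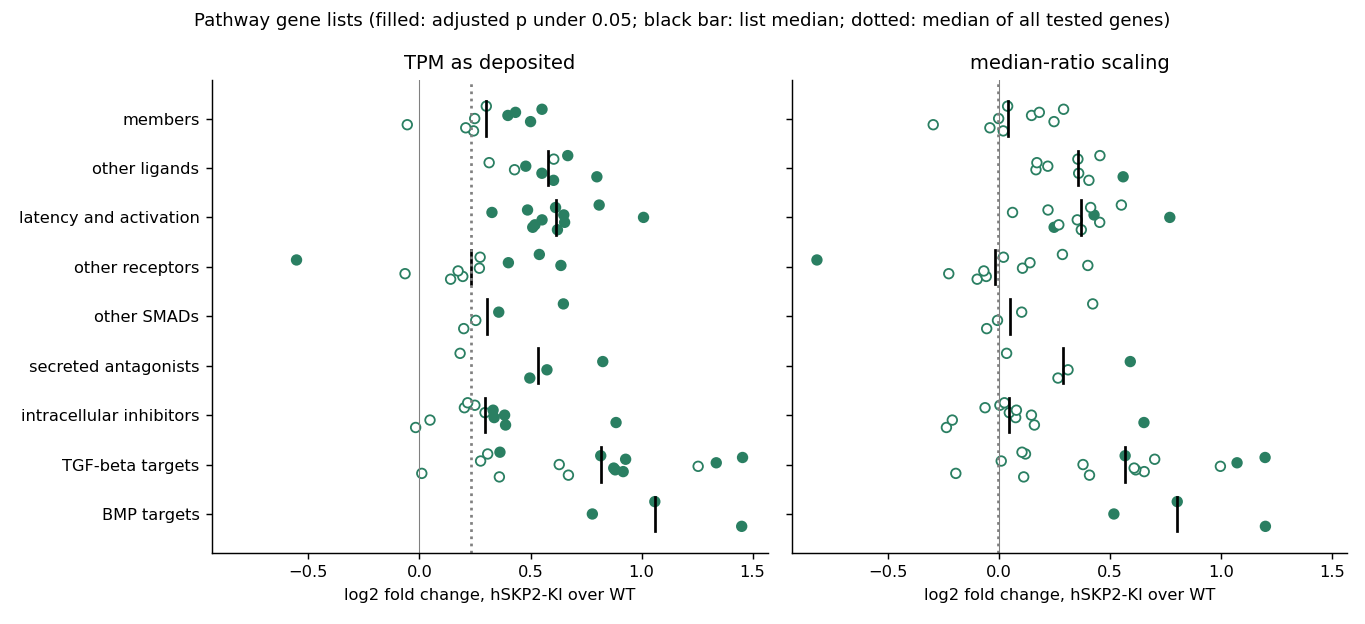
Log2 fold change of the tested genes of each list, hSKP2-KI over WT, as deposited (left) and after median-ratio scaling (right), with 1 point per gene, filled where the adjusted p is under 0.05. Black bars mark list medians and the dotted line the median of all tested genes. The members centre at 0.30 on the left and 0.04 on the right, TGF-beta targets at 0.82 and 0.57, and BMP targets at 1.06 and 0.80.

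Markers of the cell types in the lobe were read beside these results, because in bulk tissue more cells of a type and more RNA per cell cannot be told apart. The counts of called markers stand beside 32.7% of all tested genes higher on the TPM scale and 6.92% after median-ratio scaling. At an unadjusted p under 0.05 in limma 15.6% of all tested genes were higher after median-ratio scaling. The luminal epithelial list (Epcam, Cdh1, Krt8 and Krt18) summed to 1625 to 1821 TPM in hSKP2-KI and 1369 to 1553 TPM in WT prostates, with 2 of 4 genes higher (Epcam and Cdh1) and 0 after median-ratio scaling, where limma gave 0 at an unadjusted p under 0.05 as well. The seminal vesicle gene Svs2 was listed at 0 in all libraries. Fibroblast markers summed to 620 to 955 TPM in hSKP2-KI and 347 to 489 TPM in WT, with 4 of 6 genes higher, and 3 after median-ratio scaling. Dcn alone gave 519 to 768 and 285 to 398 TPM of these sums, while Col6a3 had a lower mean in hSKP2-KI, 22.5 ± 9.35 against 31.9 ± 15.1 TPM (SD, n = 4 each), and was not called (−0.45, adjusted p = 0.300 by limma). Smooth muscle markers summed to 3011 to 4624 and 2032 to 2564 TPM, with 6 of 6 higher and 3 after scaling, and endothelial markers to 32.0 to 56.7 TPM and to at most 28.5 TPM, with 4 of 5 higher and 1 after scaling. Macrophage markers ran from 120 to 255 TPM in hSKP2-KI and from 56.3 to 118 TPM in WT, with 4 of 5 higher and 0 after scaling, where 3 had an unadjusted p under 0.05 in limma. The macrophage, fibroblast and smooth muscle sums were each highest in hSKP2-KI mouse 2. That library also held the highest Tgfb1, Tgfb3, Tgfbr1 and Tgfbr2. The endothelial sum was highest in hSKP2-KI mouse 4 and the luminal epithelial sum in hSKP2-KI mouse 1. Without hSKP2-KI mouse 2 Tgfb1 rose by 0.38 (adjusted p = 0.0401 by limma). The part of these cell types in the members' levels was not tested.

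Of the remaining lists, basal epithelial markers had 1 of 3 genes higher on the TPM scale, T cell markers 1 of 2 tested and skeletal muscle markers 1 of 2 tested. Over all tested genes the share higher on that scale was 32.7%. Ptprc, a gene of all leukocytes, ranged from 3.72 to 7.76 TPM in hSKP2-KI and from 1.59 to 5.29 TPM in WT prostates. No gene of the B cell, adipocyte, Schwann cell or proliferation lists was called in either direction by limma. On the TPM scale 1 Schwann cell gene was higher at an unadjusted p under 0.05 in limma, beside 46.7% of all tested genes.

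Each member was then set against the mean log2(TPM + 1) of a marker list in the same library, a comparison added after the data were seen. Library scaling largely cancels in it, but not fully, because of the added 1. Relative to luminal epithelial markers, 0 of the 9 members were apart between genotypes in either direction, where 6.9% of all tested genes were lower and 6.76% higher, and the differences ran from −0.32 for Smad7 to 0.29 for Tgfbr2. Relative to fibroblast markers, 5 of 9 were lower in every hSKP2-KI mouse than in any WT mouse (Tgfbr1, Tgfbr3, Smad2, Smad3 and Smad7), beside 43.0% of all genes, and none was higher, with differences from −0.82 to −0.22. Relative to smooth muscle markers, 4 of 9 were lower (Tgfb2, Tgfb3, Smad2 and Smad7), beside 50.3% of all genes, and relative to endothelial markers 2 (Smad3 and Smad7), beside 27.3%. Relative to macrophage markers only Smad7 was apart, at −0.96, beside 8.08% of all genes. Subtracting a list shifts all members by the same amount, so their order here is that of the log2 fold changes. The luminal epithelial list itself rose by 0.26 in mean log2(TPM + 1). The fibroblast list rose by 0.77, smooth muscle by 0.77, endothelial by 0.62 and macrophage by 0.91. Each of these exceeds the largest member change, 0.55 for Tgfbr2, so differences below 0 follow from the subtraction and add nothing on cell types.

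**Figure D5:**
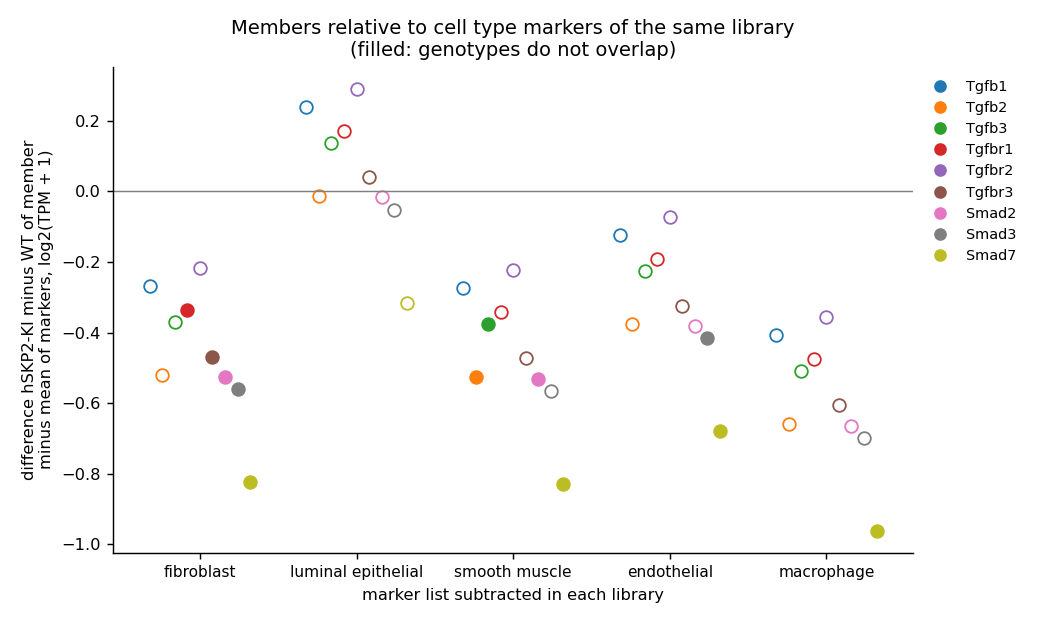
Difference between hSKP2-KI and WT in the level of each tested member minus the mean of a marker list of the same library, in log2(TPM + 1), for 5 cell types. Each colour is 1 gene, filled where the genotypes do not overlap. Values against luminal epithelial markers lie around 0, from −0.32 to 0.29. Those against the other lists all lie below 0, because each of those lists rose more than any member.

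Genes whose pattern over the 8 mice was most like that of a ligand were found by the root mean square difference of log2(TPM + 1), after subtraction of each gene's mean. For Tgfb1 these were Ctsz (0.085), Apoe (0.085) and Fads1 (0.087), which encode a lysosomal protease, a lipoprotein component and a fatty acid desaturase. Mrpl42 (0.048), Mesp2 (0.055) and Utp3 (0.063) were nearest to Tgfb2, and Slc8b1 (0.044), Grn (0.071) and Col8a2 (0.072) to Tgfb3. Mesp2 had a mean TPM of only 1.13 in hSKP2-KI and 0.739 in WT mice, a level at which the added 1 shrinks its variation. No gene was shared by these sets of 3, and the 8 points of each share genotype and library, so the likeness is a description only.

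The strand of counting is not stated, so the level of 4 transcripts that overlap members in the annotation was read. Gm35655, Gm32435 and Gm31292, which overlap Tgfb2, Tgfbr1 and Tgfbr2, had mean TPM of at most 0.156 in either genotype, and Gm41776, which overlaps Smad7, was listed at 0 in all libraries. Gm26169 and Gm29491 at Tgfb2, B230303A05Rik at Inhba, Gm8145 at Tgfbr3 and Gm51710 at Smad3 also overlap and were not analysed here.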

How the data were processed

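The authors sequenced poly-A selected RNA of 8 ventral prostates (4 of each genotype), trimmed and mapped the paired-end reads in CLC software and deposited one table of TPM for 8 samples. Its version, annotation and strand setting are not given in the sources used here. The submitters' processing notes name the builds mm10 and GRCm38. Each column sums to 1000000, and 0 columns belong to other samples. The paper names a read number for the sequencing, but TPM does not keep counts. The mapped depth of each library is therefore unknown and no counting interval is given.

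The genotype in the labels set the groups. Of 36333 genes, the 13080 that reached a TPM of 1 in 4 or more samples were fitted as log2(TPM + 1) with limma 3.58.1 (R 4.3.3) with a mean-variance trend and Benjamini-Hochberg adjustment at 0.05. The added 1 understates fold changes of low genes. The 6 within-library ratios and shares were compared with two-sided exact permutation tests over 70 assignments. Alternatives were a pseudocount of 0.1, no filter or one on a mean TPM of 5, median-ratio scaling (size factors from the tested genes), quantile normalization, a replicate block, rescaling without the 20 most abundant genes, sample weights, a robust fit and leaving out each sample. The labels give no batch.

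The members, the 8 pathway lists and the 14 marker lists were chosen with earlier results of these data known. Examples within a pathway list are the called genes with the largest absolute log2 fold change, up to 3 in each direction. The 3 nearest genes were taken for each of Tgfb1, Tgfb2 and Tgfb3. Ccn1 and Ccn2 were matched by their older symbols Cyr61 and Ctgf. Some genes of the lists are not reported here and do not enter the lists' values. Listed genes below the filter were Bmp5, Gdf15, Mstn, Itgb6, Smad9, Nog, Grem1 and Adam12. Promoters came from RefSeq (GRCm38.p6). Python 3.11.15 with matplotlib 3.10.9 drew the figures.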

Additional observations from a re-analysis of the deposited data

Results flagged for a closer look

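In 4 of 80 groups of 4 samples (the members, the named pathway genes and the ratios, in each genotype), the highest or lowest sample lay further from its neighbours than Dixon's test allows for 4 values. Chance gives about 4. Bmpr1b stood at 90.5 TPM in hSKP2-KI mouse 3, where the other hSKP2-KI mice ran from 63.6 to 66.1 TPM and all WT mice were higher. The TPM of Inhbb was 2.40 in WT mouse 3 and 2.97 to 3.08 in the other WT mice. Eng was at 11.2 TPM in WT mouse 1 and at 15.1 to 15.8 TPM in the others. The log2 ratio of Smad3 to Smad2 was 1.09 in WT mouse 4 and 1.42 to 1.45 in the other WT mice.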

How the results depend on the processing

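Scaling moved the counts most. The 4433 genes called on the TPM scale became 1461 with median-ratio scaling (905 higher, 556 lower), 1326 with quantile normalization (721 higher, 605 lower) and 1321 without the 20 most abundant genes (887 higher, 434 lower). The 4 members called became 0, 1 (Smad7, lower) and 0, and the 41 other pathway genes became 13, 11 and 12, or 27 with no filter and 25 without WT mouse 1. Leaving out 1 mouse gave 2993 to 4677 genes, 3 to 6 members (6 without WT mouse 2, with Tgfbr3 and Smad3 added) and 25 to 46 other pathway genes. The call of Tgfb3 was also lost with no filter (adjusted p = 0.0959) and with sample weights (adjusted p = 0.0517). Reversed log2 fold changes were those of Tgfb2 (−0.0022 with median-ratio scaling, −0.027 with quantile normalization), Smad2 (−0.070 with quantile normalization), Smad3 (−0.042, −0.059 and −0.022 with median-ratio scaling, quantile normalization and without the 20 most abundant genes) and Smad7 (0.022 without WT mouse 2, and between −0.104 and 0.022 without any 1 mouse). The share of Tgfb3 differed by −0.865 percentage points by medians (exact permutation p = 0.743) and by −1.19 to 1.02 without 1 mouse. Smad7 over Smad3 differed by −0.30 by medians and by −0.34 to −0.26 without 1 mouse, each with an exact permutation p of 0.0571, the smallest possible for the latter. Over the 153 member and alternative pairs 122 kept direction and call, 20 lost the call, 4 gained it and 7 reversed. The cause was not tested. Same-numbered mice of the genotypes correlated at 0.22, −0.11, 0.17 and −0.01 in their deviations from genotype means. No differently numbered mice were set beside them, so whether the numbers pair the mice was not tested. A replicate block gave 5128 genes, 4 members and 46 other pathway genes. The unknown mapped depth of each library limits Inhba most, at 0.165 to 1.11 TPM.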
